A study of Mus musculus with 12 samples.

Results

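The collagen genes are the 41 genes of the deposited tables whose symbols have the form of a collagen alpha chain (Col1a1, Col4a2 and so on), with Col17a1 left aside. They were 41 of 31618 genes listed in each female library and 41 of 31669 in each male library. They were grouped by the kind of collagen they encode into 11 fibrillar genes, 6 basement membrane genes, 9 FACIT genes (fibril-associated collagens with interrupted triple helices) and 15 others. RNA was sequenced from 12 tissues of CD1/129 background mice aged 3 to 7 months, 6 female and 6 male, to describe what loss of the posterior Hox genes of the HoxA and HoxD clusters does to the reproductive tract. The 5 genotypes, each sampled as uterus and as vas deferens, were WT, Hoxa9,10,11-/- (Hoxa-/- below), Hoxd9,10,11-/- (Hoxd-/-), Hoxa9,10,11-/-d9,10,11+/- (Hoxa-/-d+/-) and Hoxa9,10,11+/-d9,10,11-/- (Hoxa+/-d-/-), and values for the 4 mutants are given in this order. The last 2 are called the compound mutants, and the 2 genotypes with both copies of a cluster's genes mutated are called its pair. WT oviduct and WT caudal epididymis completed the 2 sets, and the female mice were in diestrus. Each group was 1 library of RNA pooled from 3 animals, so no difference below has a replicate check or a p-value, and each is described by its size.

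Collagens are secreted proteins whose chains wind into a triple helix, and a given collagen type needs its own set of chains. Fibrillar collagens (types I, III, V and relatives) form the rope-like fibrils that give the stroma and muscle wall of the tract their strength. Type IV collagens form the sheet beneath epithelia and around muscle cells, vessels and nerves, while FACITs sit on fibril surfaces and the remaining types build filaments, anchoring fibrils or cell-surface molecules.

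Promoter letters were available in RefSeq (GRCm38.p6) for 33 of the 41 genes. The sequences below are the stretch of the 250 bases before the annotated start that holds no annotated exon, written 5′ to 3′ on the gene's strand. They belong to the fibrillar pair of the uterine stroma (Col1a2 and Col3a1), the divergent pair Col4a5 and Col4a6, whose starts lie 1343 bases apart on opposite strands, and 2 genes that the uterine comparisons turn on (Col8a2 and Col13a1). Capitals mark 5 motifs on either strand. They are the TATA box, searched as TATAAA, the promoter element searched as CCAAT, and the GC box, which was searched for as GGGCGG. The last 2 are cores that posterior Hox proteins are known to prefer, one spelled TTTAC and the other spelled, with a different final letter, TTTAT. The reverse complement of the TATA box letters holds the last of these, so those matches overlap.
Col1a2, chr6:4505370-4505492, plus strand: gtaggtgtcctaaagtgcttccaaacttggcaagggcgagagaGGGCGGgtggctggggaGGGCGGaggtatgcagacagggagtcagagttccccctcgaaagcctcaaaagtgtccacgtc
Col3a1, chr1:45311288-45311537, plus strand: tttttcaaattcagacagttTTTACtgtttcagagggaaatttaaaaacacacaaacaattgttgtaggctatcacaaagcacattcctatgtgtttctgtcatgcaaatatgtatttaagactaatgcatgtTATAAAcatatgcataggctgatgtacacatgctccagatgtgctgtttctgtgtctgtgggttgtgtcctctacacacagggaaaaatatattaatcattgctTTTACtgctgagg
Col4a5, chrX:141475169-141475384, plus strand: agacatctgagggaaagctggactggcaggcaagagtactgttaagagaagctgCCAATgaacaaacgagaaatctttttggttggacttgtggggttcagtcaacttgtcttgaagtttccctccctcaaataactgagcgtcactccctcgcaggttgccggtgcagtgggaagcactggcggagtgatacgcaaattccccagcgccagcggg
Col4a6, chrX:141474077-141474326, minus strand: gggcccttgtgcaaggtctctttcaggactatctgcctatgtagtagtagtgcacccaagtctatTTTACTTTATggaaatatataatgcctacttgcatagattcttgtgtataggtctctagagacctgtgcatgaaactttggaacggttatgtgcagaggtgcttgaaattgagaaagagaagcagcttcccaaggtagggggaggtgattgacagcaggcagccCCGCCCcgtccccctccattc
Col8a2, chr4:126286544-126286792, plus strand: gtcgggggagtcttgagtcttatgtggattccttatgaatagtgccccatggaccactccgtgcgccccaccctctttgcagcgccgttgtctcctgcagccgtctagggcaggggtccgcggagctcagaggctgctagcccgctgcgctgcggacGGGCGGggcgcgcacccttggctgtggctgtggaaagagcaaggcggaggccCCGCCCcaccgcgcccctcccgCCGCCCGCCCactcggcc
Col13a1, chr10:61979109-61979358, minus strand: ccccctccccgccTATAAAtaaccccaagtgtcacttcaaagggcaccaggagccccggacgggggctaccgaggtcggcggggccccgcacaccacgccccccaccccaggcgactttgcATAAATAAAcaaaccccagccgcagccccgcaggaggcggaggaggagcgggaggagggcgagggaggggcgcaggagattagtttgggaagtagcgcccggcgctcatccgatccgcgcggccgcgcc
Col3a1 holds 1 TATAAA, with the TTTAT inside it, and 2 TTTAC, and its stretch is 35.2% G and C. Col1a2 holds 2 GC boxes in its 123 printed bases and Col8a2 holds 4, while Col13a1 holds 1 TATAAA and 3 TTTAT. For Col1a2 127 of the 250 bases were left out, and for Col4a5 34, in both cases including those nearest the start. Motifs in the bases left out were not counted for these genes. Col4a5 holds 1 CCAAT, and Col4a6 holds 1 GC box, 1 TTTAC and 1 TTTAT, so the printed stretches of the divergent pair shared none of these motifs. Among the 33 collagen promoters, 60.6% held GGGCGG in the 250 bases, against 32.7% of all 32851 promoters in the table. TTTAC stood in 21.2% of the collagen promoters and in 28.3% of all, and TTTAT in 27.3% and 37.3%. TATAAA stood in 12.1% of the collagen promoters and 12.4% of all, and CCAAT in 33.3% and 33.9%. The collagen windows were also richer in G and C, with a median of 60.4% against 52.4% for all promoters. The part of this base content in the motif shares was not tested. A match describes letters in this window and shows no binding.

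The deposited values are log2 values centred to a median of 0 for each gene across the female or the male libraries, so levels are compared only between libraries of 1 sex, and levels of different genes are not compared. Before centring, values of 1 normalised read or less had been set to 1, which is called the floor below. A gene counted as measured when it varied and, where its level could be recovered, reached 20 normalised reads in some library. By this rule 38 collagen genes were measured in the female set, among 16979 genes, and 36 in the male set, among 17082. Col9a1 and Col19a1 were measured in neither set, Col2a1 was not measured in the female set, and Col10a1, Col22a1 and Col25a1 were not measured in the male set. The relative depth of the libraries spanned 1.34-fold in the female and 1.92-fold in the male set, the vas deferens library of the Hoxa+/-d-/- and the epididymis library being the shallowest. Hoxa11 transcripts were lower than WT by log2 differences of -2.74 and -3.11 in the Hoxa-/- and Hoxa-/-d+/- uterus and -2.29 and -3.20 in the vas deferens. Hoxd11 was at -0.60 and -1.58 in the Hoxd-/- and Hoxa+/-d-/- uterus, with -2.47 and -1.18 for the same genotypes in vas deferens, and none of the 6 targeted genes was at the floor in any library. The other targeted genes separated the labels less. In the Hoxa-/- and Hoxa-/-d+/-, Hoxa10 was at -1.06 and -0.41 in the uterus with vas deferens values of -0.80 and -0.88, Hoxa9 lay between -0.34 and 0.61 in those 4 libraries and Hoxd11 was also at -1.35 in the Hoxa-/-d+/- uterus. In the Hoxd-/- and Hoxa+/-d-/-, uterine Hoxd9 was at -0.01 and -0.25, vas deferens Hoxd9 at -1.28 and -1.20, and Hoxd10 lay between -0.27 and 0.57. The HoxD genotypes were thus weakly marked by their transcripts in the uterus. In the vas deferens Hoxd11 did not separate them from the Hoxa-/-d+/-. By the file headers lane 1 held the WT vas deferens and the uteri of WT and Hoxa-/- mice in sequencing run 134, the other uterine mutants and the first 3 vas deferens mutants shared its lane 2, and the remaining libraries came from run 136. Lane and genotype can therefore not be told apart in most contrasts with WT.

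**Figure D1:**
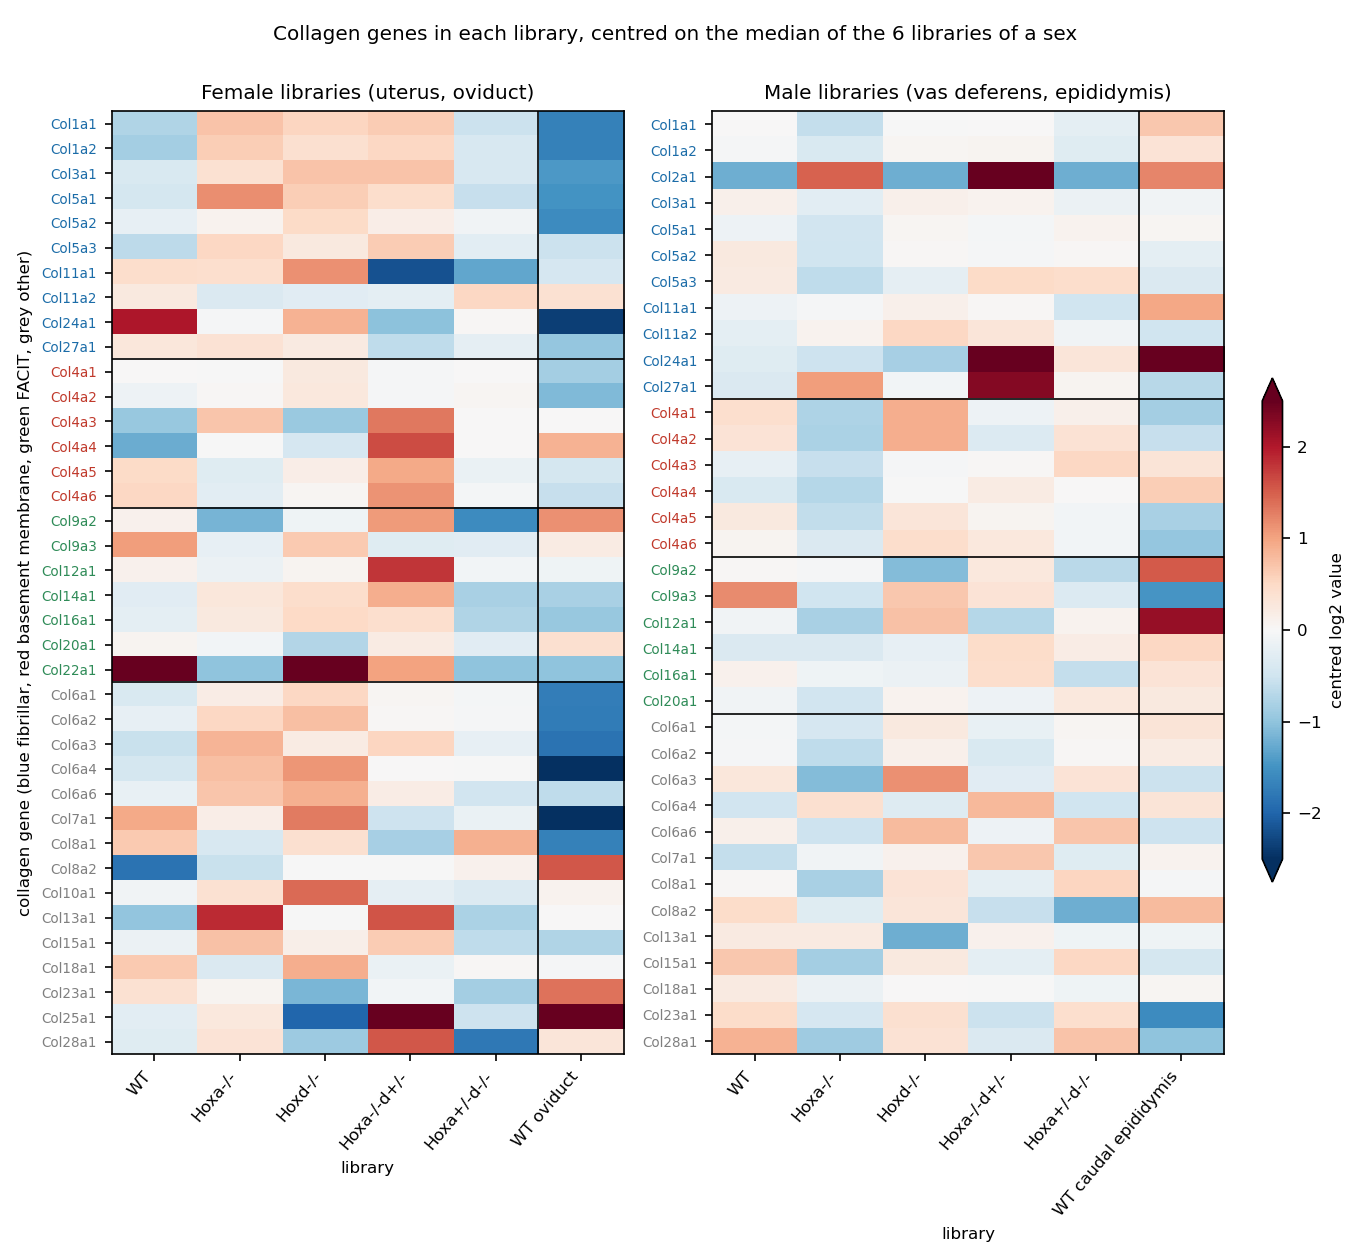
Heatmap of the measured collagen genes (rows, named in the colour of their group) in the 6 female (left) and 6 male (right) libraries (columns). Colour is the centred log2 value, capped at 2.5 on either side. Of the 10 female fibrillar rows, 8 are lower in the oviduct than in the WT uterus, and Col1a1 and Col1a2 are higher than WT in the Hoxa-/-, Hoxd-/- and Hoxa-/-d+/- columns.

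In the uterus, the chains of the main fibril collagens were higher than WT in 3 of the 4 mutants and near WT in the Hoxa+/-d-/-. Col1a1 and Col1a2 encode the chains of type I collagen, the main fibril of connective tissue. Relative to WT, Col1a1 was at log2 differences of 1.47 in the Hoxa-/-, 1.30 in the Hoxd-/-, 1.39 in the Hoxa-/-d+/- and 0.21 in the Hoxa+/-d-/- uterus, and at -0.94 in the oviduct. Col1a2 gave 1.46, 1.26, 1.37 and 0.45 in the same 4 mutants and -0.84 in the oviduct. Both chains thus stood more than 2-fold above WT in the same 3 mutants and were lowest in the oviduct. Col3a1, whose fibrils are typical of distensible organs such as the uterus, was at 0.75, 1.09, 1.08 and -0.01 in the 4 mutants in that order and at -1.07 in the oviduct. Its 3 high libraries were those of type I collagen, but the Hoxa-/- value lay under 2-fold.

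The minor fibrillar chains, which set the start and the width of fibrils, were less uniform. Col5a1 was at 1.62, 1.05, 0.89 and -0.13 in the 4 mutants, with -1.05 in the oviduct, and Col5a3 at 1.16, 0.90, 1.29 and 0.39, with 0.12. Col5a2, the partner of Col5a1 in type V collagen, was at 0.30, 0.68, 0.36 and 0.11, with -1.37 in the oviduct. Type V chains were thus above WT in the Hoxa-/-, Hoxd-/- and Hoxa-/-d+/- uterus, Col5a2 by less than 2-fold.

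Col11a1, a fibril-starting chain best known from cartilage, had low enough counts for reads to be recovered. The WT, Hoxa-/- and Hoxd-/- uterus held 265, 303 and 393 reads (some values are fractions of a read), the Hoxa-/-d+/- and Hoxa+/-d-/- 47 and 95, and the oviduct 178. Both compound mutants were therefore below every single mutant and WT, by log2 differences of -2.63 and -1.74 from WT. Its partner Col11a2 ranged only from -0.60 to 0.28 in the 4 mutants. Col24a1 (mm9 chromosome 3, listed start 144955436), a fibrillar chain known from developing bone, was recovered at 218 reads (95% exact Poisson interval 190 to 249) in WT and at 61, 89.96, 29 and 66.3 reads in the 4 mutants, with 13 in the oviduct. WT was the highest library and every mutant lay over 2-fold below it, at -2.05, -1.15, -3.04 and -1.98. Col27a1, another fibrillar chain of cartilage, lay between -0.91 and 0.08 in the mutants.

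Among the basement membrane genes, Col4a1 and Col4a2, the chains of the sheet present in almost all tissues, stayed within 0.38 log2 units of WT in every mutant uterus. Col4a1 was at -0.02, 0.24, -0.03 and 0.00 in the 4 mutants and at -0.85 in the oviduct, and Col4a2 at 0.14, 0.38, 0.10 and 0.16 with -0.98. The chains of more restricted sheets varied more. Col4a3 was at 1.65, 0.03, 2.27 and 0.96, and Col4a4, its partner in the sheet of the kidney glomerulus, at 1.22, 0.81, 2.86 and 1.25. Both had WT as their lowest library and the Hoxa-/-d+/- as their highest. Col4a5 was at -0.78, -0.31, 0.47 and -0.64 and Col4a6, with which it forms a sheet around smooth muscle cells, at -0.79, -0.46, 0.61 and -0.58. For this pair the Hoxa-/-d+/- was the only uterus above WT. The 10 smooth muscle markers had their highest median there, at a centred 0.71 (range 0.48 to 1.23), against -0.16 to 0.07 in the other 4 uteri, with none at the floor, and their part in these values was not tested. In bulk tissue, fewer cells of a type and less RNA per cell cannot be told apart.

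FACIT genes showed no common direction over the mutant uteri. Col12a1 and Col14a1, whose products coat type I fibrils, were at -0.25, -0.04, 1.69 and -0.16, and at 0.55, 0.71, 1.19 and -0.53. The Hoxa-/-d+/- was the highest library for both. Col16a1, another fibril-associated chain, was at 0.49, 0.75, 0.67 and -0.50, again above WT in the same 3 mutants as type I collagen. Col9a2 and Col9a3, chains of the FACIT of cartilage, were at -1.26, -0.21, 0.96 and -1.69, and at -1.23, -0.39, -1.35 and -1.32. Col9a3 was thus below WT in all 4 mutants, and the Hoxa-/-d+/- uterus was the only mutant with Col9a2 above WT. Col22a1 (chromosome 15, start 71628907 in mm9), a FACIT known from junctions such as that of muscle and tendon, was at 102 reads (95% interval 83.2 to 124) in the WT uterus, at the floor in the Hoxa-/- and Hoxa+/-d-/- uterus and the oviduct, at 31 reads (21.1 to 44.0) in the Hoxd-/- and at 4 (1.09 to 10.2) in the Hoxa-/-d+/-. Taking the floor as 3 reads per library, Col22a1 was at least 39.3-fold lower in the Hoxa-/- and at least 40.7-fold lower in the Hoxa+/-d-/- than in WT. The WT uterus alone held more than 31 reads.

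Type VI collagen, which forms beaded filaments around cells, followed type I in direction. Col6a1, Col6a2 and Col6a3 differed from WT by less than Col1a1 and Col1a2 in the Hoxa-/-, Hoxd-/- and Hoxa-/-d+/-. In the Hoxa+/-d-/-, Col6a1 and Col6a3 were further above WT than Col1a1. Col6a1 was at 0.57, 0.91, 0.43 and 0.35, Col6a2 at 0.73, 0.96, 0.25 and 0.18, and Col6a3 at 1.41, 0.77, 1.09 and 0.35. All 3 chains were above WT in all 4 mutants, and past 2-fold only for Col6a3 in the Hoxa-/- and Hoxa-/-d+/- uterus. The further chains Col6a4 and Col6a6 were at 1.18, 1.54, 0.44 and 0.42, and at 0.89, 1.08, 0.38 and -0.29. Col10a1, a short-chain collagen of growth plate cartilage, was high in the Hoxd-/- alone, at 0.47, 1.51, -0.13 and -0.25. Col15a1 and Col18a1, proteoglycan collagens of basement membrane zones, were at 0.87, 0.29, 0.79 and -0.49, and at -1.01, 0.25, -0.82 and -0.62. Col28a1, a collagen found around peripheral nerve, was at 0.63, -0.62, 1.84 and -1.48, and the FACIT gene Col20a1 between -0.80 and 0.15.

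In all 4 mutant uteri 13 of the 38 collagen genes lay above WT and 4 below it, by any amount, and 3 did so by over 2-fold. The share of all measured genes on one side by any amount was not computed, so the 13 and 4 have no background beside them. Col8a2, a short-chain collagen best known from the basement membrane of the cornea, was higher in every mutant, at 1.28, 1.84, 1.84 and 1.96, and higher still in the oviduct at 3.38. Col8a1, its partner chain, was at -1.06, -0.27, -1.49 and 0.23 with -2.35 in the oviduct, so the 2 chains diverged. Counting genes over 2-fold from WT to the same side in all 4 mutants, 1 of the 38 collagen genes was higher (Col8a2) and 2 were lower (Col22a1 and Col24a1), where 1.21% of all measured genes were higher and 1.22% lower. Because all 4 contrasts use the same WT library, these genes equally set that library apart. The WT uterus also stood apart for Prss28, a protease gene of the uterine glands, which was lower in each of the other 5 female libraries by log2 differences of -8.01 to -12.8. In each compound mutant uterus 1 of the 7 uterus markers, a list that holds Prss28, was at the floor, so the largest difference can be a bound. The part of the WT library in the shared differences was not tested.

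Col13a1 (mm9 chromosome 10, listed start 61301246), a transmembrane collagen of cell junctions, was the gene that followed the HoxA genotype most in the uterus. It was at 2.85 in the Hoxa-/- and 2.57 in the Hoxa-/-d+/- uterus, against 0.97 in the Hoxd-/-, 0.20 in the Hoxa+/-d-/- and 1.01 in the oviduct. The lower of the 2 Hoxa-/- libraries lay 1.59 log2 units above the highest of the 3 others. It was the only one of the 38 whose Hoxa-/- pair stood over 2-fold above the 3 other genotypes, and none stood below, beside 0.966% and 1.08% of all measured genes. Within lanes the Hoxa-/- was 2.85 above WT in lane 1, and the Hoxa-/-d+/- 1.59 above the Hoxd-/- and 2.37 above the Hoxa+/-d-/- in lane 2. The gap of 1.59 already fixes the sign of these differences, so they are no separate check on lane. The nearest genes outside the threshold were Col8a1, lower by a gap of 0.79, and Col4a3, higher by 0.69. The same 2 libraries held the stratified squamous markers high: 10 of the 11 were measured, with median centred values of 5.08 (range 1.22 to 7.50) and 2.28 (0.06 to 3.84), against -1.65, -1.48 and 0.52 in the WT, Hoxd-/- and Hoxa+/-d-/- uterus, and their part in Col13a1 was not tested. Col7a1, which makes the anchoring fibrils beneath stratified epithelia, was below WT in that pair, at -0.77 and -1.46, and at 0.36 and -1.11 in the Hoxd-/- and Hoxa+/-d-/-. No gene separated the Hoxd-/- pair by 2-fold in either direction, where 0.913% of all measured genes were higher and 0.342% lower, and the nearest was Col23a1, a transmembrane collagen, lower by a gap of 0.78, at -0.31, -1.53, -0.46 and -1.24.

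Counted by genotype against WT, the Hoxa-/- uterus held 10 of 38 collagen genes over 2-fold higher and 6 lower, beside 6.04% and 7.34% of all measured genes. In the Hoxd-/- uterus 8 were higher and 4 lower, Col25a1 only through the floor, beside 6.22% and 5.91%. The Hoxa-/-d+/- uterus had 13 higher and 6 lower, beside 8.49% and 6.94%, and the Hoxa+/-d-/- had 2 higher and 8 lower, beside 8.02% and 6.4%. The shares of collagen genes past 2-fold were thus above the background in both directions in the first 3 mutants, and in the Hoxa+/-d-/- in the lower direction only. Over the 10 fibrillar genes the median difference was 0.52, 0.80, 0.62 and 0.05 in the 4 mutants, with the median of all genes at 0.00. The 11 fibroblast and stroma markers, none at the floor, had medians of 0.36, 0.59, 0.49 and 0.66 against WT, with centred medians of -0.26 (range -1.04 to 0.55) in WT and -0.08 (-0.49 to 0.86), 0.29 (-0.07 to 1.002), 0.26 (-0.67 to 0.63) and 0.08 (-0.27 to 0.85) in the mutants. Their median was thus above WT in all 4 mutants, and their part in the fibrillar values was not tested. The basement membrane median was 0.06, 0.14, 0.54 and 0.08, and the FACIT median -0.25, -0.21, 0.67 and -0.53. In the Hoxa+/-d-/- 0 of 7 FACIT genes lay above WT. Measured against the mean of the 3 uteri that carry at least 1 intact copy of the same cluster in place of WT, the fibrillar medians were 0.36, 0.33, 0.34 and -0.46, and Col1a1 was at 0.97, 0.34, 0.89 and -0.74.

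**Figure D2:**
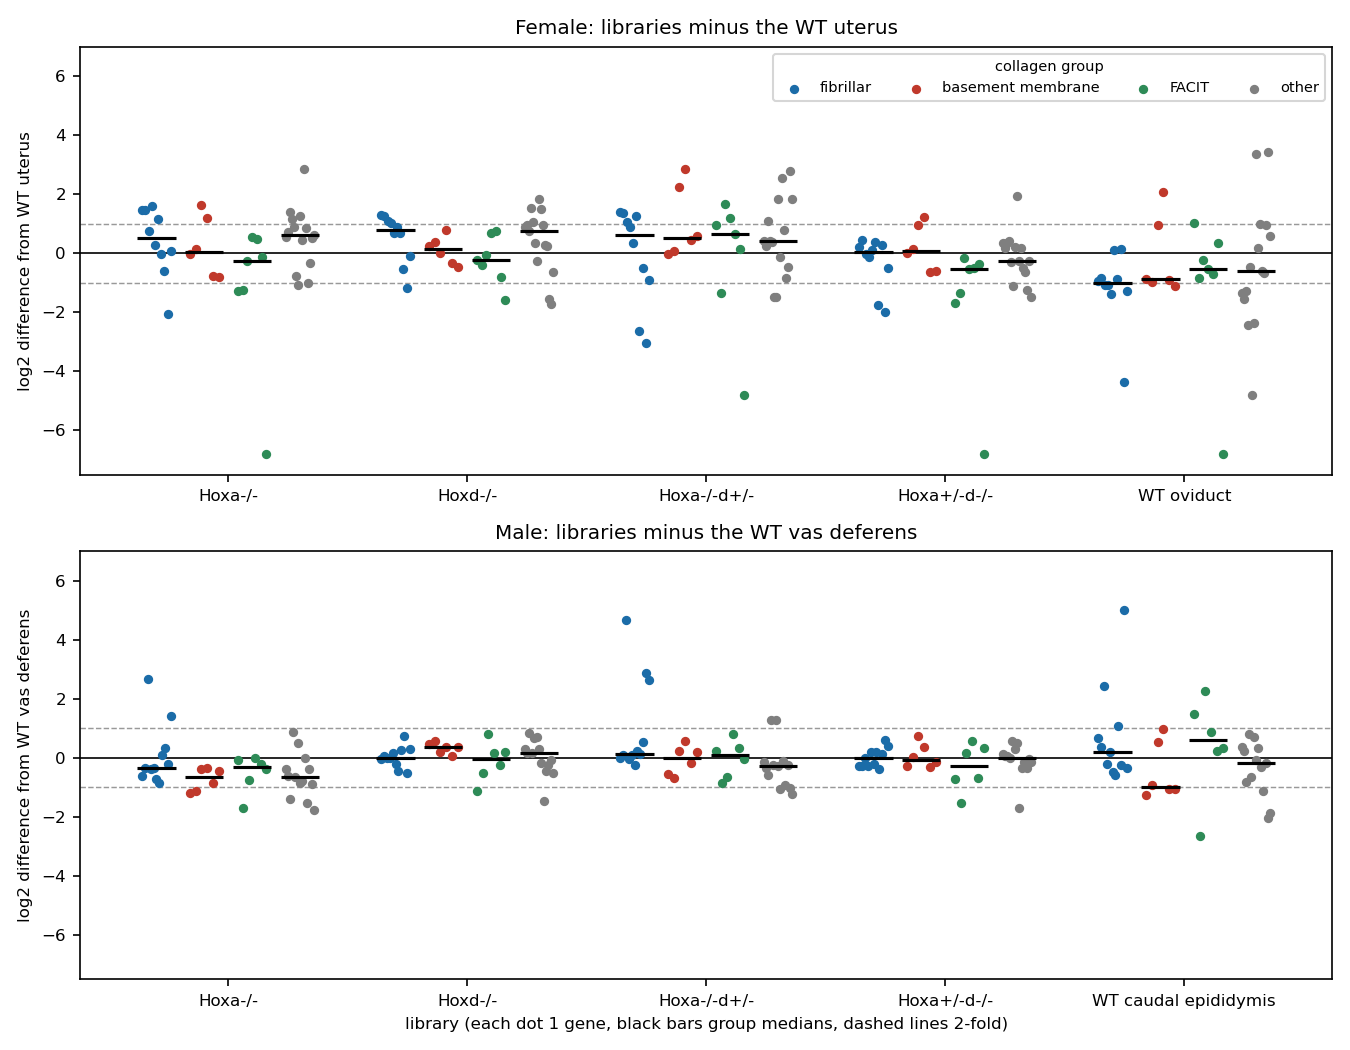
Log2 difference from the WT tissue (vertical axis) of each measured collagen gene in each mutant and WT duct library (horizontal axis), uterus above and vas deferens below. Each dot is 1 gene coloured by group, black bars are group medians, dashed lines mark 2-fold and floor values (Col22a1, Col25a1, Col2a1) are drawn at 1 normalised read. In the uterus the fibrillar medians lie at 0.52, 0.80, 0.62 and 0.05 in the 4 mutants and at -0.997 in the oviduct.

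The compound mutants were then set against the single mutant that carries the same null cluster. In the uterus, most collagen values were lower in the Hoxa+/-d-/-, which also carries 1 mutant copy of the HoxA genes, than in the Hoxd-/-. Of 38 genes 30 were below the Hoxd-/-, with a median of -0.78 against 0.01 for all measured genes, and these 2 libraries shared a lane. Past 2-fold, 12 were lower and 1 higher, beside 4.39% and 5.44% of all measured genes. The lower genes included Col1a1 at -1.09, Col3a1 at -1.10, Col5a1 at -1.18 and Col11a1 at -2.43 among the fibrillar genes. They also included the FACIT genes Col14a1 at -1.24, Col16a1 at -1.25, Col9a2 at -1.48 and Col22a1, which was at least 13.5-fold lower. Of the others, Col6a4 was at -1.11, Col6a6 at -1.37, Col7a1 at -1.47 and Col10a1 at -1.76. The gene counted higher, Col25a1, was at the floor in the Hoxd-/- and at 3 reads in the Hoxa+/-d-/-, so it has no fold. By group the median was -0.82 for fibrillar genes, with 9 of 10 below 0, -1.24 for FACIT, -0.17 for basement membrane and -0.78 for the others. The 8 adipocyte markers were lowest in the Hoxa+/-d-/- uterus, at a median centred value of -2.74 (range -4.28 to -1.48, 1 at the floor) against -0.27 in the Hoxd-/-. Stratified squamous markers were higher in the Hoxa+/-d-/- than in the Hoxd-/- uterus, 8 of 10 by over 2-fold, with a median difference of 2.31 (centred medians 0.52, range -0.60 to 1.52, and -1.48, range -3.39 to -0.07). The 7 simple epithelium markers had a median difference of 0.50 (centred medians 0.50, range 0.02 to 0.91, and -0.04, range -0.38 to 0.24), and the fibroblast markers were at centred medians of 0.08 and 0.29. No epithelial or fibroblast marker was at the floor, and the part of any of these lists in the collagen values was not tested.

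The Hoxa-/-d+/- against the Hoxa-/- uterus gave no such common direction, with a median of -0.03 and 18 genes above and 20 below the Hoxa-/-. Past 2-fold, 8 were higher and 1 lower, beside 6.66% and 4.99% of all measured genes. The higher genes included Col4a4 at 1.64, Col4a5 at 1.25 and Col4a6 at 1.39 of the basement membrane group, whose median was 0.93. Among the FACIT genes Col12a1 was at 1.95 and Col9a2 at 2.22, and Col22a1 counted as higher only through the floor, since 4 reads against a floor of 3 allow no more than a 1.41-fold bound. Col28a1 was at 1.21. Col25a1, a transmembrane collagen of neurons, had 23.0 reads in the Hoxa-/-d+/- against 5 in the Hoxa-/-, a log2 difference of 2.28, with 3 in WT and 39.8 in the oviduct. The lower gene was Col11a1 at -2.61. These 2 libraries came from different lanes.

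**Figure D3:**
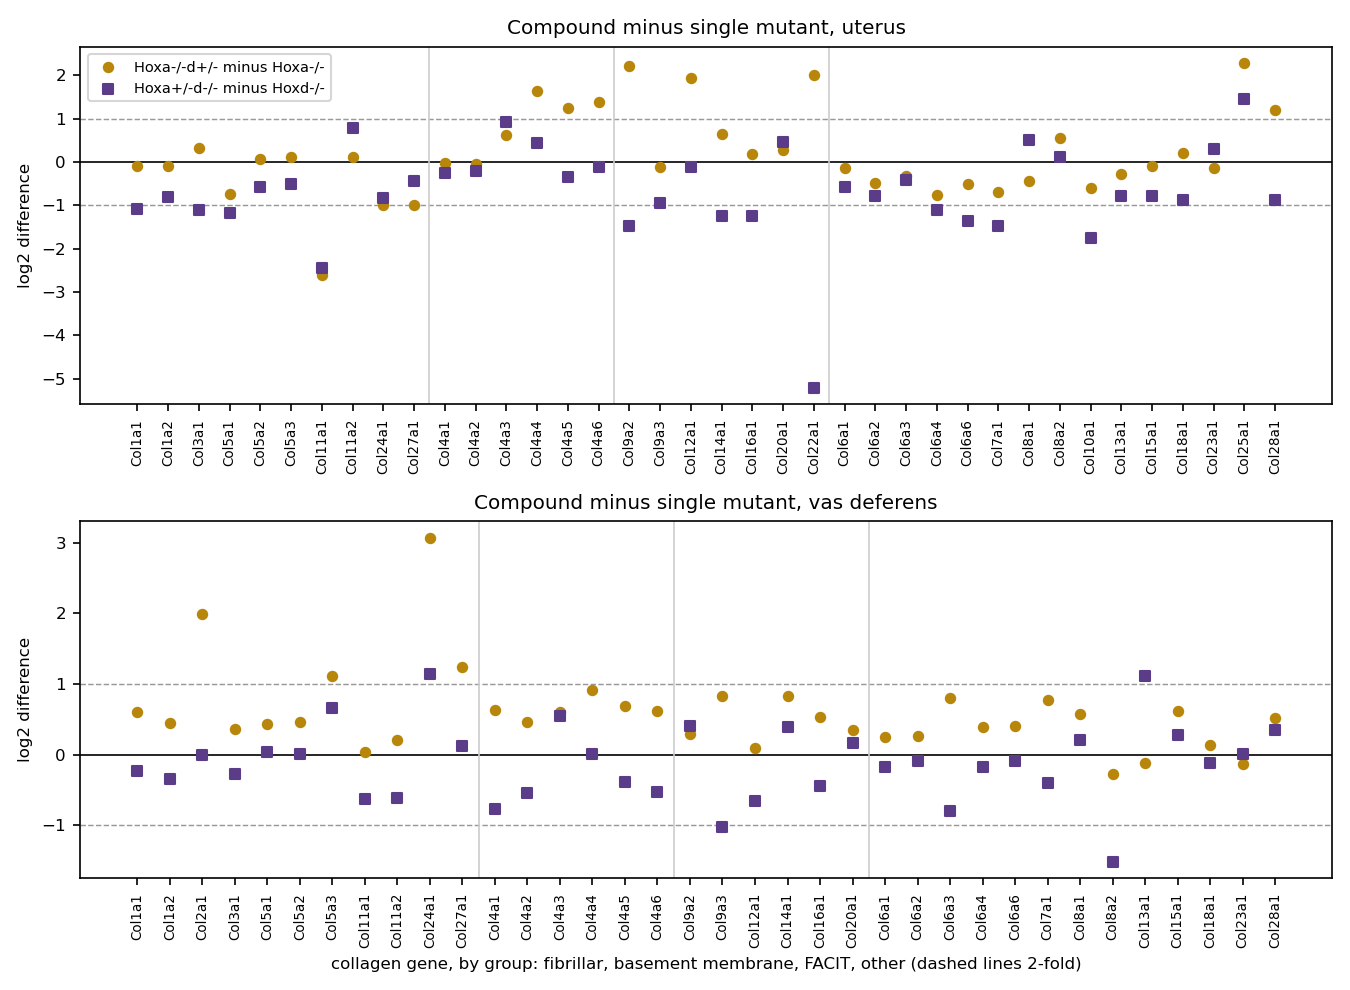
Log2 difference of each compound mutant from its single mutant (vertical axis) for each measured collagen gene (horizontal axis, by group), uterus above and vas deferens below. Markers distinguish the HoxA from the HoxD comparison, dashed lines mark 2-fold and floor values are drawn at 1 normalised read. In the uterus 30 of 38 genes lie below 0 in the HoxD comparison, and in the vas deferens 33 of 36 lie above 0 in the HoxA comparison.

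In the vas deferens, the type I and III chains stayed within 2-fold of WT in every mutant. Col1a1 was at -0.61, -0.03, -0.00 and -0.27 in the Hoxa-/-, Hoxd-/-, Hoxa-/-d+/- and Hoxa+/-d-/- and at 0.67 in the epididymis. Col1a2 was at -0.35, 0.08, 0.10 and -0.27 with 0.37, and Col3a1 at -0.39, 0.01, -0.03 and -0.27 with -0.20. The Hoxa-/- was the lowest library for all 3. The type V chains lay between -0.87 and 0.25 in the mutants, and the type XI chains Col11a1 and Col11a2 between -0.37 and 0.75.

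Col2a1, the main collagen of cartilage, Col24a1 and Col27a1 were the fibrillar genes over 2-fold from WT in any male mutant. Col2a1 was at the floor in the WT, Hoxd-/- and Hoxa+/-d-/- vas deferens and at 7 reads in the Hoxa-/-, 29 in the Hoxa-/-d+/- and 4 in the epididymis. Against a floor of 3 reads the Hoxa-/- value was at least 3.05-fold higher than WT and the Hoxa-/-d+/- value at least 12.1-fold higher. It was the only one of 36 genes whose Hoxa-/- pair stood over 2-fold above the 3 other genotypes, with none below, beside 4.07% and 2.22% of all measured genes. That separation rests on the floor value, since against 3 reads in the Hoxa+/-d-/-, the shallowest of the 3 other libraries, the Hoxa-/- bound is 1.66-fold. Of 9 cartilage markers 4 were measured, with median centred values of 0.20 (range 0.03 to 0.99) in the Hoxa-/-, -0.13 (-1.15 to 2.69) in the Hoxa-/-d+/- and -0.21 (-0.49 to 0.19) in WT, none of them at the floor. Their part in Col2a1 was not tested.

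Col27a1 lay at the edge of the same rule, at 1.41 in the Hoxa-/- and 2.64 in the Hoxa-/-d+/- against 0.29, 0.41 and -0.35 in the Hoxd-/-, Hoxa+/-d-/- and epididymis, a gap of 0.99. Within lane 2 it was 1.12 and 2.36 above the Hoxd-/-, a direction that the gap of 0.99 already fixes. Col24a1 was recovered at 6, 4, 3, 35 and 5 reads in the WT, Hoxa-/-, Hoxd-/-, Hoxa-/-d+/- and Hoxa+/-d-/-, and at 100 (95% interval 81.4 to 122) in the epididymis. It was high in the Hoxa-/-d+/- (24.4 to 48.7) and the epididymis alone, 7.32-fold and 32.0-fold above WT.

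**Figure D4:**
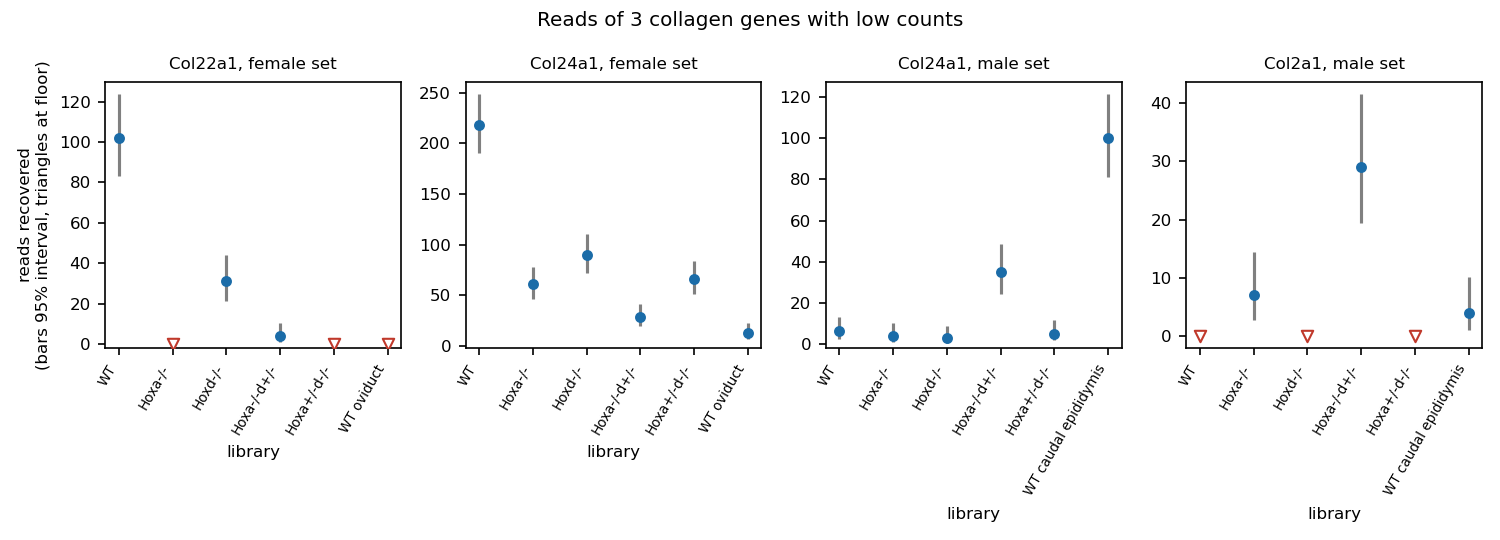
Reads recovered (vertical axis) in each library (horizontal axis) for Col22a1 and Col24a1 in the female and Col24a1 and Col2a1 in the male set. Bars are 95% exact Poisson intervals and open triangles are libraries at the floor. The WT uterus is highest for Col22a1 at 102 reads and for Col24a1 at 218, while in the male set Col2a1 is highest in the Hoxa-/-d+/- at 29.

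The basement membrane genes of the vas deferens lay to one side of WT in both single mutants. In the Hoxa-/- all 6 were below WT, with a median of -0.65, and in the Hoxd-/- all 6 were above it, with a median of 0.37, while the medians of all genes were 0.01 and -0.00. The 6 FACIT genes also all lay below WT in the Hoxa-/-, with a median of -0.30. Col4a1 was at -1.19, 0.48, -0.55 and -0.28 in the 4 mutants and at -1.27 in the epididymis. Col4a2 was at -1.13, 0.58, -0.67 and 0.03 with -0.91. Both were below WT in the Hoxa-/- pair and above it in the Hoxd-/-. Col4a5 was at -0.87, 0.06, -0.18 and -0.32 with -1.06, and Col4a6 at -0.43, 0.37, 0.19 and -0.15 with -1.04. Col4a3 was at -0.37, 0.18, 0.24 and 0.73, and Col4a4 at -0.34, 0.36, 0.58 and 0.38. The 10 smooth muscle markers, none at the floor, had median centred values of 0.67 in WT (range 0.33 to 1.19), -0.31 in the Hoxa-/- (-0.45 to 0.06), 0.96 in the Hoxd-/- (0.78 to 1.40), -0.38 in the Hoxa-/-d+/- (-0.67 to -0.15), 0.21 in the Hoxa+/-d-/- (-0.07 to 0.45) and -0.99 in the epididymis (-1.43 to -0.42). Their part in the type IV values was not tested.

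FACIT genes of the vas deferens lay between -0.69 and 0.82 for Col14a1, Col16a1 and Col20a1. Col9a3 was at -1.69, -0.51, -0.85 and -1.52, with -2.66 in the epididymis, and so highest in WT, while Col9a2 had only 5 to 22 reads per library. Col12a1 was at -0.74, 0.82, -0.64 and 0.17 in the mutants, low in the Hoxa-/- pair, and at 2.27 in the epididymis.

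Of the other male collagen genes, Col6a1 was at -0.37, 0.29, -0.12 and 0.11, Col6a2 at -0.61, 0.15, -0.35 and 0.06, and Col6a3 at -1.38, 0.85, -0.58 and 0.05. The 3 type VI chains shared their order, lowest in the Hoxa-/- and highest in the Hoxd-/- among the 5 genotypes. Col6a6 was at -0.64, 0.66, -0.24 and 0.58, and Col8a1 at -0.86, 0.30, -0.28 and 0.50, both below WT in the Hoxa-/- pair. Col6a4 was at 0.89, 0.15, 1.29 and -0.02, so the Hoxa-/- pair was here the high one. Col28a1 was at -1.75, -0.51, -1.23 and -0.15, with -1.88 in the epididymis, and was low in the Hoxa-/- pair and the epididymis. The 7 Schwann cell markers, all measured and none at the floor, were at medians of 1.05 in WT (range 0.00 to 1.27), -1.01 in the Hoxa-/- (-1.46 to -0.18), 0.37 in the Hoxd-/- (-0.43 to 0.49), -0.35 in the Hoxa-/-d+/- (-1.28 to 0.43), 0.54 in the Hoxa+/-d-/- (0.28 to 1.93) and -0.85 in the epididymis (-2.09 to 0.12), and their part in Col28a1 was not tested. Col15a1, a proteoglycan collagen of muscle and vessel basement membranes, was at -1.54, -0.43, -0.92 and -0.16, and its relative Col18a1, the source of endostatin, between -0.38 and -0.23. Col23a1 was at -0.88, -0.06, -1.01 and -0.04, and Col7a1 at 0.50, 0.70, 1.28 and 0.30. Col8a2 had 253 reads in WT and 114, 163, 97.8 and 43 in the 4 mutants, with 165 in the epididymis, at log2 differences of -0.77, -0.16, -1.05 and -1.68 in the mutants. WT was the highest of the 5 genotypes and the Hoxa+/-d-/- the lowest. Col13a1, highest in the Hoxa-/- in the uterus, was at 0.00, -1.45, -0.12 and -0.34 in the vas deferens.

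Against the WT vas deferens, 2 of 36 collagen genes were over 2-fold higher and 6 lower in the Hoxa-/-, beside 10.9% and 8.56% of all measured genes. By any amount 29 of 36 lay below WT, with a median of -0.39 against 0.01 for all measured genes. Besides the smooth muscle and Schwann cell markers given above, the 8 adipocyte markers were at a centred median of 1.03 (range 0.27 to 1.47) in the Hoxa-/- and -1.18 (-1.59 to -0.999) in WT, and the 9 skeletal muscle markers at 1.69 (-0.02 to 6.16) and 0.76 (0.20 to 1.79). The 11 fibroblast and stroma markers were at 0.03 (-0.47 to 0.14) and 0.04 (-0.22 to 0.32), none of these markers was at the floor in either library, and their part in the collagen values was not tested. In the Hoxd-/- 0 were higher and 2 lower, beside 3.42% and 4.94%. The Hoxa-/-d+/- had 5 higher and 3 lower, beside 14% and 8.44%, and the Hoxa+/-d-/- 0 higher and 2 lower, beside 7.74% and 5.42%. Higher collagen genes were therefore at or below the background share in every male mutant, and lower ones were near it in all but the Hoxa-/-, where their share was above it. No gene was over 2-fold to one side in all 4 mutants, beside 1.07% higher and 0.814% lower of all measured genes, and none separated the Hoxd-/- pair, beside 0.146% and 0.626%.

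In the vas deferens, most collagen values were higher in the Hoxa-/-d+/- than in the Hoxa-/-, in 2 libraries of the same lane. Of 36 genes 33 were above the Hoxa-/-, with a median of 0.49 against -0.01 for all measured genes. All 11 fibrillar, all 6 basement membrane and all 6 FACIT genes were among the 33, with 10 of 13 others. Past 2-fold, 4 were higher and none lower, beside 7.65% and 2% of all measured genes. All 4 were fibrillar: Col24a1 at 3.07, Col2a1 at 29 against 7 reads, Col27a1 at 1.24 and Col5a3 at 1.11. Col2a1 counted as measured only through the Hoxa-/-d+/- library. The Hoxa+/-d-/- against the Hoxd-/- gave a median of -0.10, with 2 genes higher and 2 lower past 2-fold, beside 7.97% and 4.07%. The higher genes were Col13a1 at 1.11 and Col24a1, at 5 against 3 reads, and the lower ones were Col8a2 at -1.52 and Col9a3 at -1.02. These 2 libraries came from different runs.

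Between the WT ducts, the oviduct had lower values than the uterus for most collagen genes. Of 38 genes 26 were lower, with a median of -0.84 against 0.00 for all measured genes, and the fibrillar median was -0.997 with 8 of 10 genes lower. Past 4-fold, 3 were higher and 5 lower, beside 8.7% and 3.53% of all measured genes. The lower genes were Col7a1 at -4.80, Col24a1 at -4.36, Col6a4 at -2.43, Col8a1 at -2.35 and Col22a1, at least 41.7-fold lower. The higher genes were Col25a1 at 3.44, Col8a2 at 3.38 and Col4a4 at 2.10. Fibroblast and smooth muscle markers also had their lowest female medians in the oviduct, at -1.23 (range -1.68 to -0.60, 11 of 11 measured) and -1.12 (-1.43 to -0.74, 10 of 10), with none at the floor, and their part was not tested. In the male set the caudal epididymis and the vas deferens had a collagen median difference of 0.06, with 18 genes above and 18 below. Past 4-fold, 3 were higher (Col12a1 at 2.27, Col24a1 at 32.0-fold and Col2a1, which is 2.56-fold at a floor of 3 reads) and 2 lower (Col9a3 at -2.66 and Col23a1 at -2.04), beside 9.36% and 3.95%. The basement membrane median was -0.97. Both ducts came from another run than the WT tissue, so run and tissue cannot be told apart.

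In 4 pairs, chains that assemble into 1 collagen type had ratios that ranged less than those of most pairs of collagen genes. Over the 6 female libraries the log2 ratio of Col1a1 to Col1a2 ranged over 0.27, while each chain ranged over 2.42 and 2.29. Of 703 pairs of measured collagen genes, whose median range was 2.89, this was the second narrowest. Col4a1 with Col4a2 ranged over 0.29, Col4a5 with Col4a6 over 0.32 and Col6a1 with Col6a2 over 0.37, the next in rank. In the male set the same 4 pairs ranged over 0.56, 0.48, 0.44 and 0.24, against a median of 1.89 over 630 pairs, and ranked 20, 11, 9 and 1. Some of these chains varied little themselves there. Col1a1 and Col1a2 ranged over 1.28 and 0.72, and Col6a1 and Col6a2 over 0.74 and 0.85, so their narrow ratios say less. Other pairs of partner chains were wider: Col4a3 with Col4a4 ranged over 1.57 and 0.79 in the female and male set, and Col8a1 with Col8a2 over 5.73 and 2.58. Col6a1 with Col6a3, of the same type VI collagen, ranged over 0.99 and 1.75. Col5a1 with Col5a2 ranged over 1.56 and 0.65, and Col9a2 with Col9a3 over 2.67 and 4.77. Several partner genes are also neighbours in the genome, among them Col4a1 with Col4a2, Col4a5 with Col4a6 and Col6a1 with Col6a2. The 9 pairs with listed starts within 500 kb ranged from 0.29 to 2.70 in the female and 0.24 to 3.00 in the male set. The part of genomic position in the ratios was not tested.

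**Figure D5:**
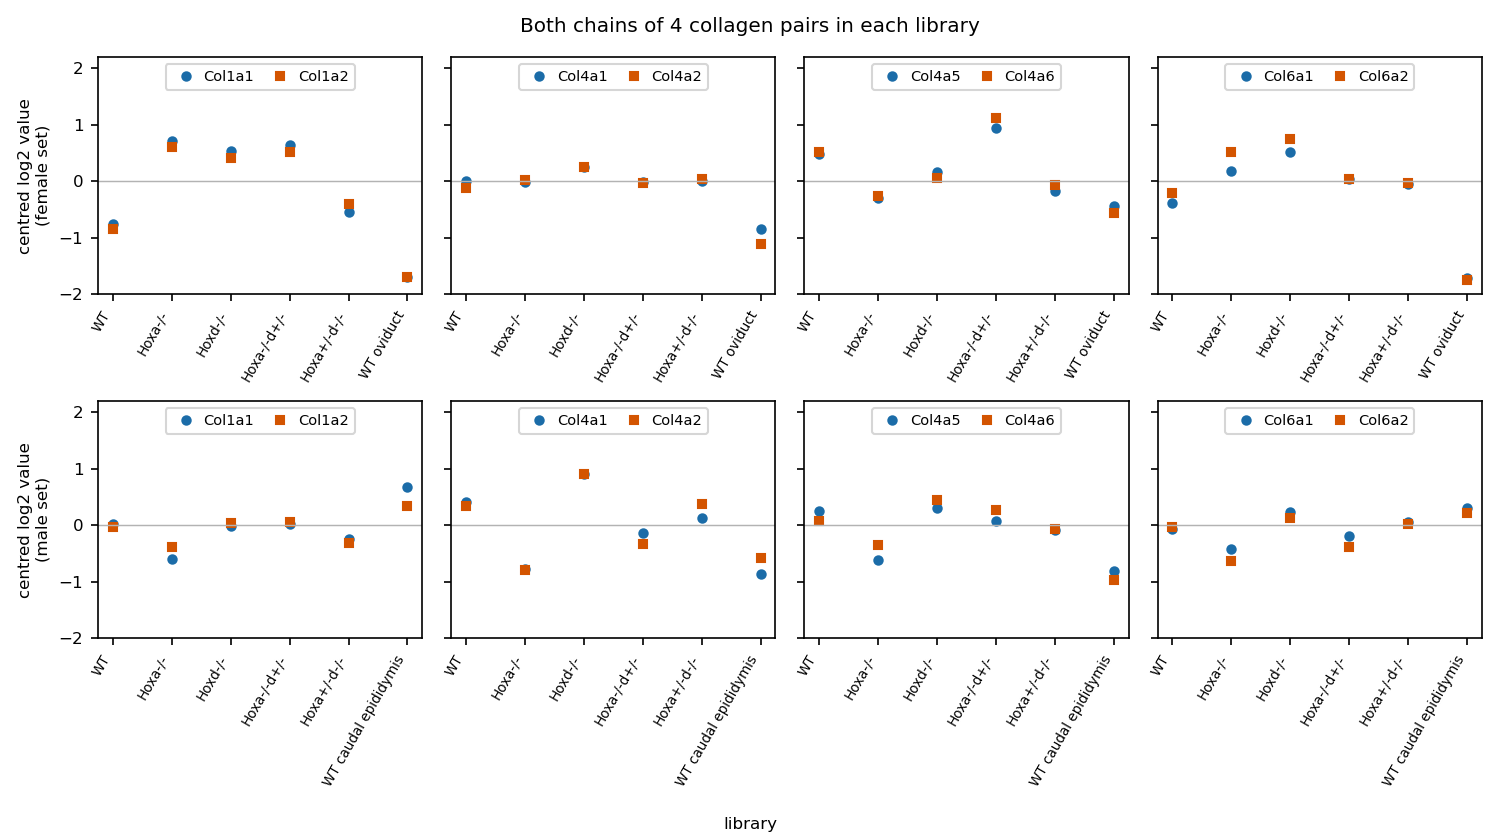
Centred log2 value (vertical axis) of the 2 chains of each pair in each library (horizontal axis), female set above and male set below, for Col1a1 and Col1a2, Col4a1 and Col4a2, Col4a5 and Col4a6, and Col6a1 and Col6a2. The 2 markers of a pair lie close together in every library, with ratio ranges of 0.27 to 0.37 in the female and 0.24 to 0.56 in the male set.

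The genes that make, bind and break down collagen were examined as fixed lists beside the members. In the uterus the 15 measured genes of collagen modification and folding had medians of 0.29, 0.35, 0.05 and -0.02 in the Hoxa-/-, Hoxd-/-, Hoxa-/-d+/- and Hoxa+/-d-/-, with 1, 1, 2 and 0 over 2-fold higher and none lower. The 18 fibril-associated proteins had medians of 0.58, 0.54, 0.96 and 0.55, with 5, 4, 6 and 2 over 2-fold higher and 1, 0, 1 and 0 lower. Dcn, Lum and Fbln1 of this list also stand among the fibroblast and stroma markers, so the 2 lists are not separate observations. All measured genes had 6.04%, 6.22%, 8.49% and 8.02% higher and 7.34%, 5.91%, 6.94% and 6.4% lower in the same contrasts, which also stand beside the other uterine lists. Fmod, a proteoglycan that binds type I fibrils, was at 1.79, 1.46, 2.05 and 0.96, and Lum, its relative, at 1.14, 1.69, 1.35 and 0.94. These proteoglycans were thus near 2-fold above WT also in the Hoxa+/-d-/-, where type I collagen was not. The 16 genes of collagen breakdown, the matrix proteases and their inhibitors, had medians of -0.13, 0.93, -0.09 and 0.99, with 0, 8, 2 and 8 over 2-fold higher and 4, 0, 4 and 1 lower. Mmp13, a collagenase, was at 0.20, 3.40, -0.13 and 1.74, and Mmp9, a gelatinase, at -0.15, 2.59, 1.08 and 1.96. The 8 leukocyte markers, none at the floor, had median centred values of 0.98 (range 0.62 to 3.66) and 1.21 (0.51 to 3.19) in the Hoxd-/- pair against -0.72 to 0.20 in the other 3 uteri, and their part in the protease values was not tested. The basement membrane partners (laminins, nidogens and the like, 14 genes) had medians between -0.27 and 0.18 in the 4 mutants.

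In the vas deferens the modification list had medians of -0.31, -0.20, -0.21 and -0.20, and the 14 basement membrane partners -0.05, 0.53, 0.43 and 0.44, so in the Hoxa-/- they were not as low as the type IV chains. Among the 9 collagen receptors, Itga2, a collagen-binding integrin of epithelium, was at -3.21 and -3.87 in the Hoxa-/- and Hoxa-/-d+/-. Itga11, the collagen-binding integrin of fibroblasts, was at 2.13, 1.01, 2.36 and 2.10 in the 4 mutants and so above WT in each.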

How the data were processed

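RNA was measured by sequencing in 12 mouse libraries, each of RNA pooled from 3 animals, made with Qiagen RNeasy and Illumina TruSeq reagents per the labels. TopHat and the build mm9 were used per the submitters' processing notes, while the way of counting, annotating and normalising is not given in the sources used here. Runs and lanes come per the file headers. Deposited were log2 values that the authors had centred per gene, with no counts or totals; differences of them were used directly, after library shifts of at most 0.00525 were removed.

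The spacing of low values gave each library's step of 1 read, and from it the reads of low genes, some of them fractions of a read. High levels could not be recovered. Intervals are exact 95% Poisson intervals and cover counting error only. A floor value stands for 3 reads in any bound. A gene counted as measured if it varied (12595 female and 12301 male genes did not) and either its level was unread or it reached 20 normalised reads (2044 and 2286 did not). Depth sets the precision of low values; the total depth is unknown. The step recovery was tested on simulated data.

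Groups are the tissue and genotype given per the labels. Thresholds were 2-fold, and 4-fold between ducts. With 1 library per group no test was run. The collagen genes and all gene and marker lists were chosen with earlier results of these data known. Genes named singly were those past a threshold, those nearest to it, the chains of collagens I, III, IV and VI, and up to 4 genes of each other list with the largest differences. Alternatives were other folds, other minimums, the mean of the libraries with an intact cluster as reference, and leaving out each library. Promoters came from RefSeq tables of GRCm38.p6. Python 3.11.15, numpy 2.4.6, pandas 2.3.3 and scipy 1.17.1 were used.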

Additional observations from a re-analysis of the deposited data

Results flagged for a closer look

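Col1a1 was above WT in all 4 mutant uteri, by up to 1.47 log2 units, and below WT in the mutant vasa deferentia, down to -0.61, although in the Hoxa-/-d+/- its value of -0.00055 was at WT. Col5a2 was above WT in all 4 mutant uteri, by 0.11 to 0.68, and below it in all 4 mutant vasa deferentia, by -0.20 to -0.73. Col8a2 was above WT in all 4 mutant uteri, by up to 1.96, and below WT in all 4 mutant vasa deferentia, down to -1.68. These 3 genes were the measured collagen genes with all 4 mutants on one side of WT in the uterus and on the opposite side in the vas deferens. The share of all measured genes with this pattern was not computed, so the 3 have no background beside them. Col1a1 belongs to them only through the value of -0.00055, smaller in size than the library shifts of up to 0.00525 that were removed. The difference between the tissues was not tested, and each tissue's 4 contrasts share 1 WT library.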

How the results depend on the processing

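No paired analysis was possible because each group is 1 library. Of 108 alternative values for 20 counts of collagen genes past a threshold (higher and lower added), 70 were within 1.5 times of the reported count. The count separating the Hoxa-/- pair in the uterus, 1 as reported, was 1 to 8 when 1 library was left out (8 without the Hoxa-/-, 3 without the Hoxd-/- or the Hoxa+/-d-/-, 2 without WT), 4 at a 1.5-fold gap and 13 at any gap. For the Hoxd-/- pair, reported at 0, it was 0 to 3 (3 without the Hoxa+/-d-/-, 2 without WT, 1 without the Hoxd-/-), 2 and 7. In the vas deferens the Hoxa-/- pair, reported at 1, gave 1 to 5 (5 without the Hoxa-/-d+/-, 4 without the Hoxa-/-, 2 without the Hoxd-/- or the Hoxa+/-d-/-), 7 and 16, and 0 at a minimum of 50 normalised reads. The Hoxd-/- pair there, reported at 0, gave 0 to 2 (2 without the Hoxa+/-d-/-, 1 without WT), 1 and 13. Against the mean of the libraries with an intact cluster, the Hoxa-/- uterus had 9 in place of 16, the Hoxd-/- vas deferens 9 in place of 2 and the Hoxa-/-d+/- vas deferens 5 in place of 8. At 1.5-fold from WT the Hoxa-/- and Hoxd-/- uterus had 25 and 24, and the 4 vasa deferentia 19, 7, 13 and 6. The Hoxd-/- vas deferens had 1 at a minimum of 50 reads. With no minimum the Hoxa+/-d-/- vas deferens had 4 in place of 2, and the Hoxa-/-d+/- against the Hoxa-/- vas deferens 9 in place of 4. Requiring a duct to lie beyond all 5 genotypes left 2 in the oviduct and 1 in the epididymis, and a 2-fold threshold gave 18 and 12. More permissive thresholds and fewer libraries raise these counts by construction, and the cause of the other moves was not tested. The share of all measured genes was not computed for these alternatives, so their counts have no background beside them. With floor values taken as 3 reads, no group median moved by more than 0.14.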

Other observations

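Collagen genes below the minimum still held reads in single libraries. Col2a1 had 11 reads in the WT uterus, 1 in the Hoxa-/-d+/- uterus and floor values in the other 4 female libraries. Col19a1, a FACIT gene, had 13 reads in the WT vas deferens, 7 in the Hoxd-/-, 4 in the Hoxa-/-d+/-, 7 in the Hoxa+/-d-/- and 1 in the epididymis, with the Hoxa-/- at the floor, and in the female set 4 reads in the Hoxa-/- and 1 in the Hoxa-/-d+/- uterus. At these counts no order of the libraries can be read.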
